A study of Mus musculus with 4 samples.

Results

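The genes described here are 8 dual-specificity phosphatase genes (Dusp1, Dusp2, Dusp4, Dusp5, Dusp6, Dusp7, Dusp10 and Dusp16) and 2 Sprouty genes (Spry1 and Spry2), whose products restrain mitogen-activated protein (MAP) kinase signalling. They were chosen by name, and all 10 were found among the 50600 genes of the deposited tables. The cells were mouse primary T cells, strain C57BL/6NJ, and their RNA was sequenced in 4 libraries numbered as biological replicates 1 to 4, which form 1 group. The file headers describe the cells as Th0, activated, 16 h, and the linked protocol is one for CD4+ T cells. By convention, Th0 denotes activated helper T cells given no cytokine that would steer them into a lineage. Age and developmental stage are given as unknown and sex as not collected. The 4 biosamples carry 1 donor identifier, and nothing says that they came from separate animals, so the p-values measure only the spread between these samples, which may be technical. The study has no resting or differently treated cells, so every result below is a level or a spread between replicates, and none is a response to activation.

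Extracellular signal-regulated kinases (ERK), c-Jun N-terminal kinases (JNK) and p38 kinases are MAP kinases that carry signals from the T cell receptor and from stress to the nucleus. MAP kinase phosphatases end the signal by removing phosphate from the threonine and the tyrosine of the kinase's activation loop. Several of them are transcribed in response to the kinase they switch off, which makes a negative feedback loop, and Sprouty proteins are feedback inhibitors that act further upstream, between the receptors and the kinases. Dusp1, Dusp2, Dusp4 and Dusp5 encode nuclear inducible phosphatases, Dusp6 and Dusp7 (with Dusp9) cytoplasmic phosphatases that prefer ERK, and Dusp10 and Dusp16 (with Dusp8) phosphatases that prefer JNK and p38.

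The 8 phosphatase genes share the coding sequence of a catalytic site, which neither Sprouty gene has. Translation of the longest complete coding sequence of each gene in GENCODE M21 (build GRCm38, the same primary assembly as mm10) found the signature of cysteine-based phosphatases, histidine and cysteine followed by any 5 residues and arginine, exactly once in each of the 8. It was absent from Spry1 and Spry2. The stretches below show how alike the sites are; capitals mark the codons of the catalytic cysteine and of the signature's arginine.
Dusp1: gttcatTGCcaggccggcatctccCGGtca
Dusp2: gtgcacTGCcaagctggcatctctCGCtca
Dusp4: gttcacTGCcaggccggcatctccCGAtca
Dusp5: gtccacTGCgaagctggggtttccCGGtcg
Dusp6: gtgcatTGCttggcaggtatcagcCGCtct
Dusp7: gtgcacTGCctagcaggcatcagcCGTtca
Dusp10: atccacTGCcaggccggcgtgtccCGAtcc
Dusp16: atccacTGCttagctgggatctctCGCtcc
The catalytic cysteine was written with the codon TGC in all 8. Over whole coding sequences the closest pair among the members was Dusp6 and Dusp7, at 72.5% identity over 1140 aligned bases, followed by Dusp1 and Dusp4 at 70.7% over 1102. Spry1 and Spry2 were 61% identical over 920 aligned bases. No run of 50 bases in any transcript of the 10 genes recurred on the same strand in a transcript of another gene. On the opposite strand, 498 of the 2424 distinct runs of Dusp5 recurred in AC137853.2, and 638 of the 2927 of Spry1 in Gm42922. Exons of Spry1 overlapped those of the antisense gene Gm42922 in the deposited annotation, and the counting was strand-specific.

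The levels of the 10 genes spanned more than 2 orders of magnitude, with Dusp5 and Dusp2 at the top and Spry2 at the bottom. Levels are given in TPM (read pairs divided by exonic length and brought to the same sum in each library). Values are listed in the order of replicates 1 to 4, and means are ± SD over the 4 libraries (n = 4). Members at 100 TPM or more in every library numbered 4 (Dusp5, Dusp2, Spry1 and Dusp4). The lowest of these, Dusp4, ranked 1281 by mean TPM among 21751 nuclear protein-coding genes. The share of all genes at 100 TPM is not given here. At the lower floor, 9 of 10 members reached 1 TPM in every library. Over all 21751 nuclear protein-coding genes, 9840 reached 1 TPM in every library, which is also the background for the gene lists below. The median of the members' mean levels was 66.8 TPM, beside 22.9 TPM over the 12285 genes that passed the count filter of the spread test, and 6 of 10 members lay above that value.

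**Figure D1:**
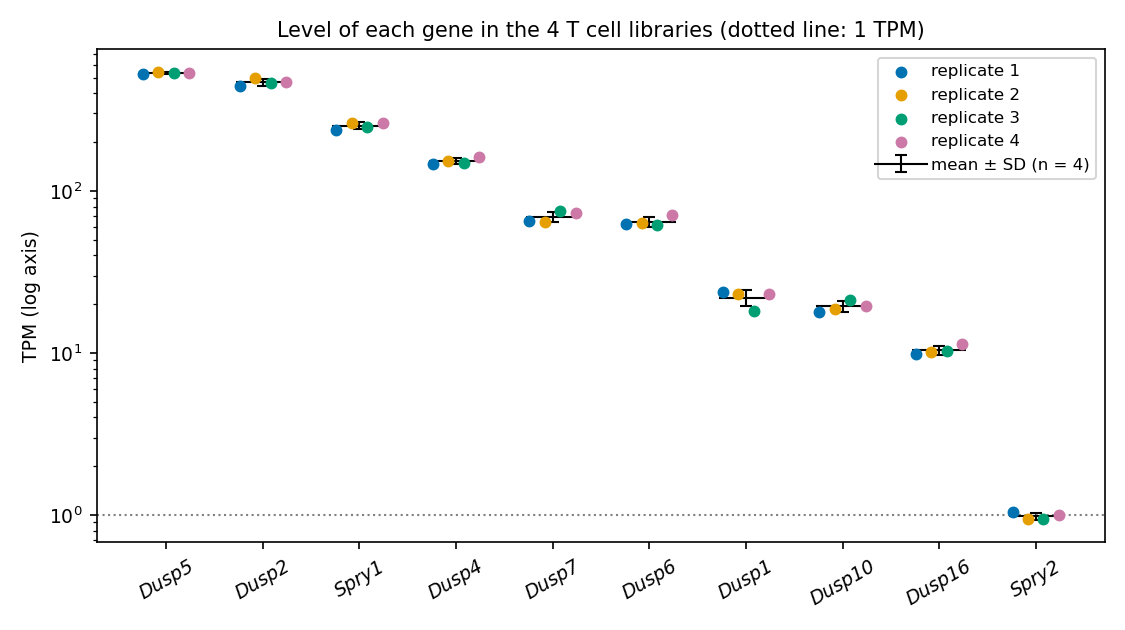
Level of each of the 10 genes in TPM (log axis) in the 4 T cell libraries (coloured points), with the mean and SD (black bars, n = 4), in order of mean level. The points of each gene lie close together beside the distance between genes, from 534 TPM for Dusp5 to 0.981 TPM for Spry2; the points of Dusp7 and Dusp6 overlap, as do those of Dusp1 and Dusp10.

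Among the nuclear inducible phosphatases, Dusp5, an ERK-selective enzyme that also anchors inactive ERK in the nucleus, stood highest. Dusp5 (ENSMUSG00000034765.6, mm10 chromosome 19, 53529109 to 53542431, plus strand) lay at 523, 544, 535 and 536 TPM, a mean of 534 ± 8.68 TPM. All 4 libraries were within 1.04-fold of each other, and the gene ranked 250 by mean TPM among 21751 nuclear protein-coding genes. In bulk libraries such as these, fewer cells with a transcript and less of it per cell cannot be told apart. Dusp2, a phosphatase found mainly in haematopoietic cells and long known as PAC-1 from activated T cells (ENSMUSG00000027368.6, chromosome 2, 127336159 to 127338376, plus strand), lay at 444, 499, 465 and 466 TPM, a mean of 468 ± 22.4 TPM and rank 305. Dusp5 exceeded Dusp2 in 4 of 4 libraries, by 1.09-fold to 1.18-fold in TPM. Their ranges did not overlap.

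Dusp4, a paralogue of Dusp1 that acts on ERK and JNK in the nucleus (ENSMUSG00000031530.6, chromosome 8, 34807297 to 34819894, plus strand), lay at 146, 152, 149 and 162 TPM, a mean of 152 ± 6.77 TPM. The ratio of Dusp2 to Dusp4 in TPM was 3.08 ± 0.165. Dusp1, the archetype of the family and a target of many stress and mitogen signals (ENSMUSG00000024190.6, chromosome 17, 26505590 to 26508519, minus strand), was the exception in its class, at 23.7, 23.1, 18.1 and 23 TPM, a mean of 22 ± 2.61 TPM. Replicate 3 lay below the other 3 libraries, which lay close together. Dusp5 exceeded Dusp1 by 24.6 ± 3.38-fold in TPM, and the ratio was largest in replicate 3, at 29.6.

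The cytoplasmic ERK phosphatases lay below Dusp4 and close to each other. Dusp7 (ENSMUSG00000053716.9, chromosome 9, 106368632 to 106375724, plus strand) lay at 65.2, 64, 74.7 and 72.5 TPM, a mean of 69.1 ± 5.3 TPM. Dusp6, the feedback phosphatase most widely used as a readout of ERK activity (ENSMUSG00000019960.8, chromosome 10, 99263231 to 99267489, plus strand), lay at 62.7, 63.1, 61.4 and 71 TPM, a mean of 64.6 ± 4.33 TPM. Dusp7 was the higher of this pair in each library, by 1.01-fold to 1.22-fold, but their ranges overlapped. Dusp9, the remaining enzyme of this class and no member of the set, lay at 0.866, 0.696, 1.34 and 1.59 TPM, from 28 to 69 read pairs in a library.

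Transcripts of the JNK and p38 phosphatases were the least abundant of the phosphatase classes. Dusp10, which restrains JNK and p38 (ENSMUSG00000039384.8, chromosome 1, 184013302 to 184075636, plus strand), lay at 17.9, 18.7, 21.3 and 19.6 TPM, a mean of 19.4 ± 1.48 TPM. Dusp16, a JNK phosphatase that shuttles between nucleus and cytoplasm (ENSMUSG00000030203.17, chromosome 6, 134715468 to 134792625, minus strand), lay at 9.9, 10.1, 10.3 and 11.3 TPM, a mean of 10.4 ± 0.633 TPM. Dusp10 exceeded Dusp16 by 1.86 ± 0.147-fold in TPM. Dusp8, the last of the class and no member of the set, stayed at 0.0972 to 0.348 TPM, from 7 to 32 read pairs in a library, and did not pass the count filter.

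Summed over the 10 typical MAP kinase phosphatase genes (the 8 members with Dusp8 and Dusp9), the level was 1342 ± 35.9 TPM. The nuclear inducible class made up 87.9%, 88.6%, 87.3% and 87.1% of it, a mean of 87.7 ± 0.671%. The cytoplasmic ERK class made up 10 ± 0.568% and the JNK and p38 class 2.23 ± 0.127%. The make-up was nearly the same in every library. It depends on exonic length: as shares of CPM, with no length division, the classes held 82.6%, 13.2% and 4.25%, so the share of the JNK and p38 class became more than 1.5 times as large.

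**Figure D2:**
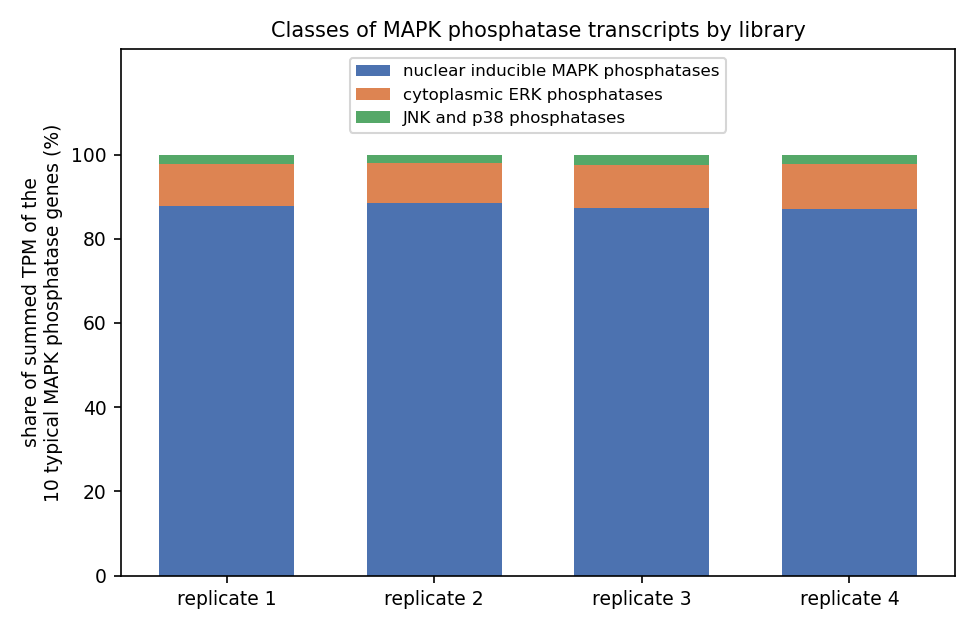
Share of the summed TPM of the 10 typical MAP kinase phosphatase genes (percent) in each of the 3 classes, 1 bar per library. The nuclear inducible class fills 87.1% to 88.6% of each bar and the JNK and p38 class 2.1% to 2.39%.

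The Sprouty genes lay at opposite ends of the set. Spry1, an inhibitor of Ras and ERK signalling that is known to be inducible by the T cell receptor (ENSMUSG00000037211.12, chromosome 3, 37639947 to 37644598, plus strand), lay at 237, 262, 247 and 263 TPM, a mean of 252 ± 12.5 TPM and rank 702. Spry2, its paralogue (ENSMUSG00000022114.4, chromosome 14, 105891949 to 105896819, minus strand), lay at 1.04, 0.94, 0.941 and 1 TPM, a mean of 0.981 ± 0.0493 TPM. The ratio of Spry1 to Spry2 in TPM was 227, 278, 262 and 263 in replicates 1 to 4.

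Spry2 rested on 35, 29, 37 and 28 read pairs, so counting error alone gives a coefficient of variation of about 17.6%, more than the 5.03% seen between libraries. Its level in CPM had exact 95% Poisson intervals from 0.455 to 0.908 in replicate 1 and from 0.411 to 0.806 in replicate 3, which cover counting error only. Spry2 lay on the floor of 1 TPM and was the member that missed it, in replicates 2 and 3. Spry4, another paralogue and no member of the set, lay at 1.3, 1.52, 0.994 and 0.99 TPM, and Spry3 was not matched by symbol. Thus of the 3 Sprouty genes matched, 1 reached 1 TPM in every library. The count was 2 with TPM computed over protein-coding genes and 3 at a floor of 0.5 TPM.

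The order of the levels was nearly the same in the 4 libraries. From high to low it was Dusp5, Dusp2, Spry1, Dusp4, Dusp7, Dusp6, Dusp1, Dusp10, Dusp16 and Spry2. Of the 45 pairs of members, 44 had 1 direction in 4 of 4 libraries and 43 had ranges that did not overlap. Of the 9 pairs of neighbours, 2 did not differ beyond their spread. The mean difference between Dusp7 and Dusp6 was 0.0966 ± 0.123 in log2(TPM + 1), with Dusp7 higher each time but overlapping ranges. That between Dusp1 and Dusp10 was 0.169 ± 0.272 in log2(TPM + 1), with Dusp1 higher in 3 libraries of 4 (two-sided exact permutation test by sign flips, p = 0.375 both before and after adjustment over the 45 pairs). In replicate 3 Dusp1 was the lower, at 0.848 times the TPM of Dusp10. For each of the other 44 pairs the exact permutation test gave the smallest p that 4 libraries allow, which is 0.128 after Benjamini-Hochberg adjustment over the pairs, so no pair can pass 0.05 in this design. With no length division Dusp16, whose exonic length of 7798 bases was the greatest of the set, moved above Dusp1 and Dusp10, to 24.1 CPM against 17.6 and 17.5 CPM.

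No member passed the test for a spread between replicates above the trend for its abundance. In edgeR's quasi-likelihood fit over all genes, 0 of 10 members passed an adjusted p of 0.05, beside 28 of 12285 genes tested (0.228%). With so few calls over all genes, 0 of 10 is near the background. At an unadjusted p under 0.05 there were 0 of 10 members, beside 5.42% of all genes tested, and DESeq2 marked none of the 10 as a dispersion outlier. The members' adjusted p lay from 0.972 (Dusp1) to 1 (Spry2). The count of 28 became 14 without replicate 3, and that of the members stayed at 0 with each replicate left out.

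The SD of log2 CPM had a median of 0.071 over the members and of 0.102 over all genes tested. That difference cannot be read without abundance, since the spread falls as counts rise. Within 20 bins of like abundance, 5 of 10 members lay above the 50th percentile of SD. Dusp1 had the largest SD of the set, 0.185, at percentile 91.7 of its bin, with an unadjusted quasi-likelihood p of 0.111 in edgeR. Dusp7 (SD 0.095) and Dusp2 (SD 0.0776) followed in percentile, at 78.9 and 73.6. Dusp5 (SD 0.0328) and Dusp16 (SD 0.0639) were at percentiles 15.9 and 22.8, and Spry2 (SD 0.0667) at 0.326, where its SD was below that expected from counting alone.

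**Figure D3:**
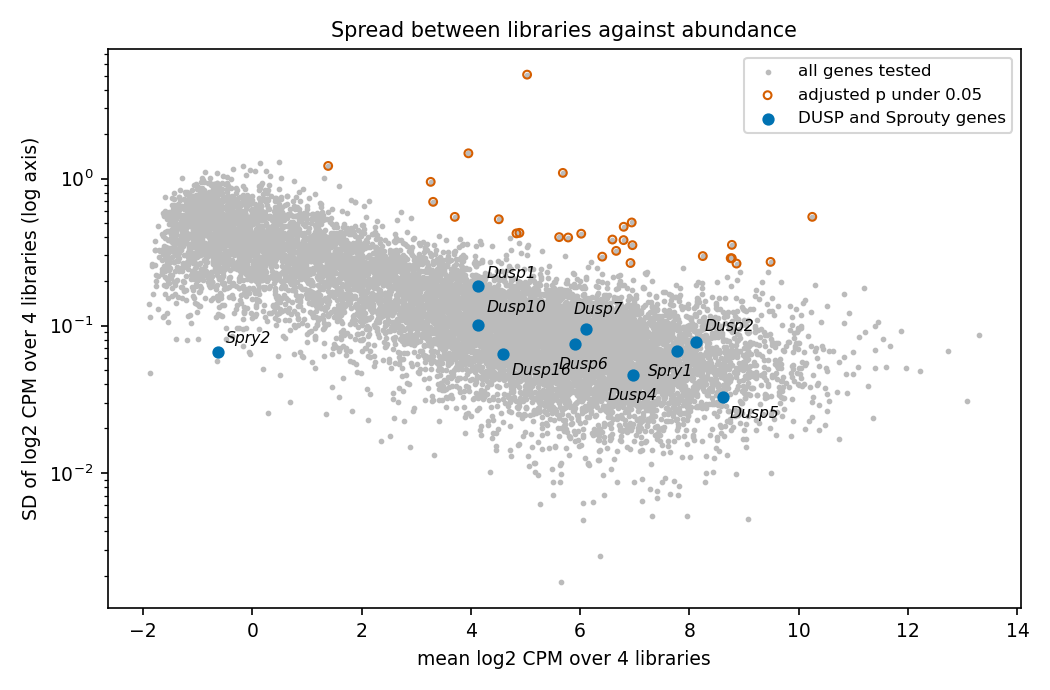
SD of log2 CPM over the 4 libraries (log axis) against mean log2 CPM for the 12285 genes tested (grey), with the 28 genes past the adjusted p of 0.05 ringed in orange and the 10 members in blue. The members lie inside the grey cloud; Dusp1, at an SD of 0.185, is toward the upper edge at its abundance and Spry2, at 0.0667, at the lower edge.

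Members deviated in both directions in every library, with most of them low in replicate 1. Relative to each gene's own mean of log2 CPM, 2 of 10 members lay above it in replicate 1, 5 in replicate 2, 3 in replicate 3 and 6 in replicate 4, with median deviations of -0.0506, 0.00519, -0.0223 and 0.0347. The 2 members above their mean in replicate 1 were Dusp1 and Spry2. Such counts over all genes tested are not given here, so low values in replicate 1 cannot be read as particular to the members. Replicate 3 held both the lowest deviation, -0.273 for Dusp1, and the highest, 0.141 for Dusp10. Dusp7 was also high there, at 0.115, while Dusp6, its closest relative in sequence, was at -0.0695.

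**Figure D4:**
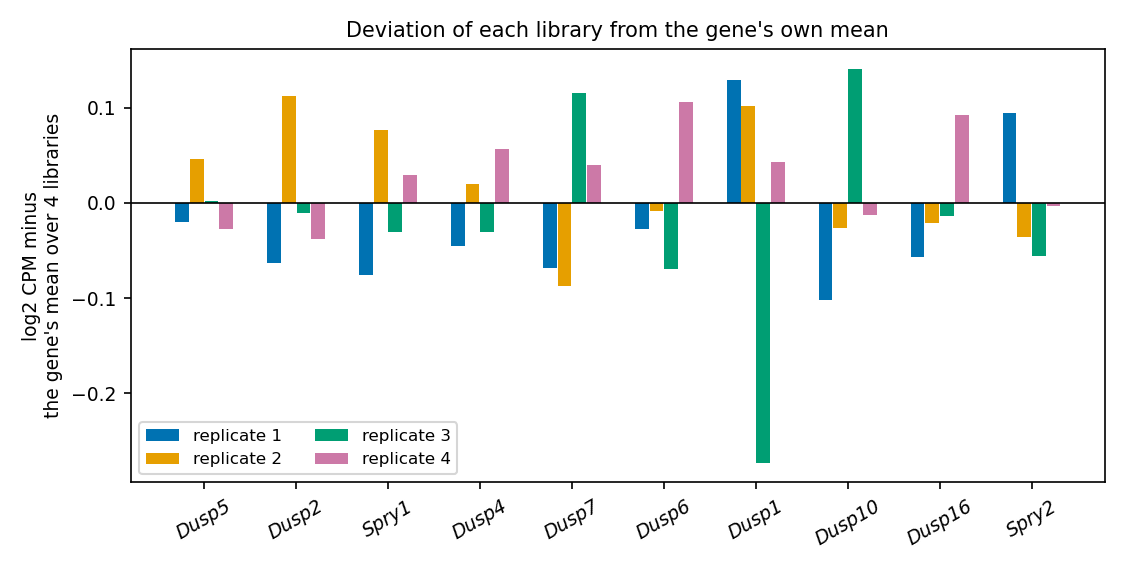
Deviation of each library from the gene's own mean over the 4 libraries, in log2 CPM, for the 10 members in order of level (bars coloured by replicate). Most bars are short; the longest is that of Dusp1 in replicate 3, at -0.273.

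In TPM, transcripts of the ERK cascade, on which most of these inhibitors act, lay below Dusp5, Dusp2 and Spry1 and far above Spry2. Of the 8 ERK cascade kinase and scaffold genes 8 reached 1 TPM in every library. Map2k2 and Map2k1, the kinases that activate ERK, lay at 129 ± 6.3 TPM and 90.7 ± 2.67 TPM, below Dusp4 at 152 ± 6.77 TPM and above Dusp7 at 69.1 ± 5.3 TPM. Dusp2, Dusp4 and Dusp5 together came to 1155 ± 33.7 TPM. These are transcript levels and say nothing of protein amounts or activity.

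In the p38 and JNK arms, transcripts of the phosphatases Dusp10 and Dusp16 summed to less than those of the main kinase genes. Dusp10 alone lay above the JNK gene Mapk8 in TPM in 4 of 4 libraries. That order rests on exonic length, 3042 bases for Dusp10 against 9255 for Mapk8. In read pairs Mapk8 was the higher in each library, at 2553, 2257, 3010 and 1911 against 875, 841, 1222 and 800. Of the 8 p38 cascade genes 7 were detected, with the p38 substrate kinase gene Mapkapk2 at 221 ± 8.53 TPM, the p38 activator gene Map2k3 at 171 ± 4.25 TPM, Mapk14 (p38 alpha) at 139 ± 2.35 TPM and Mapkapk3 at 81 ± 6.34 TPM. Mapk13 had 4 read pairs in replicate 1 and none in the others. Of the 5 JNK cascade genes 4 were detected, among them the activators Map2k4 (58.6 ± 0.784 TPM) and Map2k7 (57.3 ± 3.3 TPM), Mapk9 at 24.3 ± 0.764 TPM and Mapk8 at 16.6 ± 0.855 TPM, and Mapk10 had no count. Dusp10 and Dusp16 summed to 29.8 ± 1.79 TPM, less than Mapk14 with Mapk11 (172 ± 3.44 TPM) and than Mapk8 with Mapk9 (40.9 ± 0.599 TPM), in 4 of 4 libraries each. Dusp1 and Dusp4, which can also act on JNK or p38, are not in that sum.

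**Figure D5:**
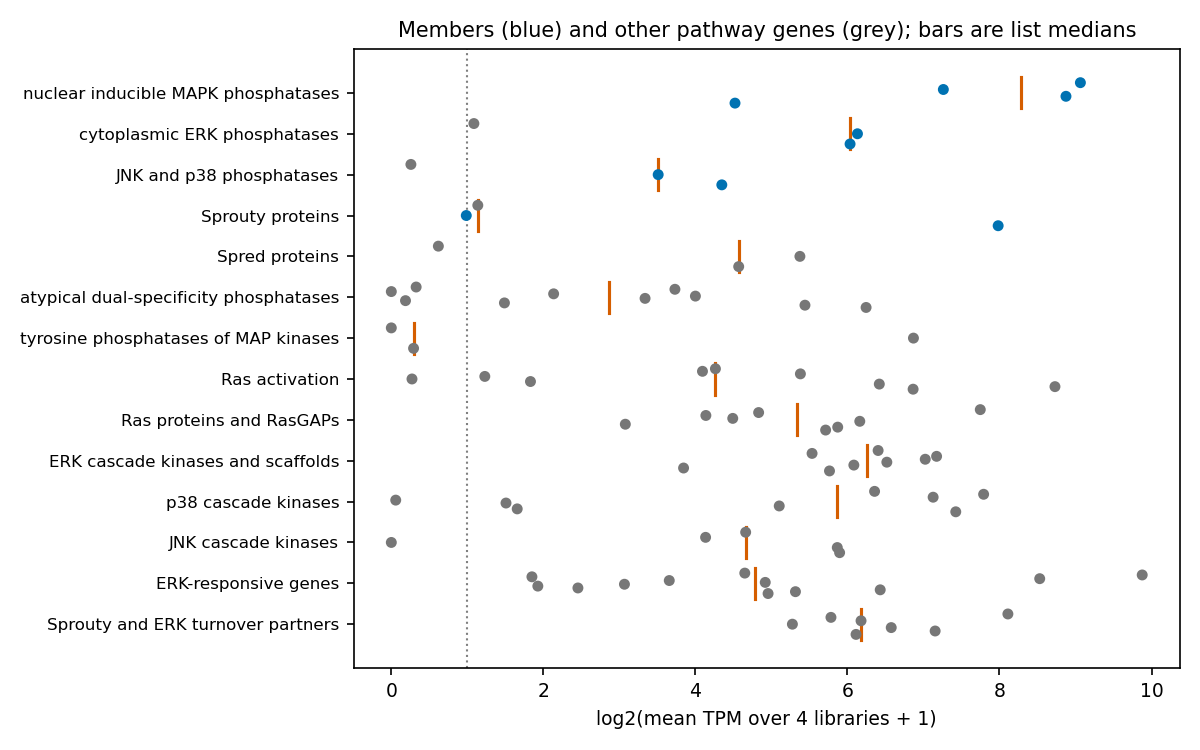
Mean level, log2(TPM + 1), of the genes of each list, 1 point per gene (members in blue, other genes in grey; vertical place within a row has no meaning), with the list median as an orange bar; the dotted line marks 1 TPM. Dusp5, Dusp2 and Spry1 stand to the right of all ERK, p38 and JNK cascade genes.

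Some genes of related families were present beside the members. Of the 3 Spred genes, relatives of Sprouty that also restrain Ras signalling, Spred2 lay at 40.5 ± 5.18 TPM, Spred1 at 22.7 ± 1.07 TPM and Spred3 below 1 TPM in every library. Of the 3 tyrosine phosphatase genes with a MAP kinase docking motif, Ptpn7, the haematopoietic one, lay at 116 ± 2.31 TPM, while Ptpn5 stayed below 1 TPM and Ptprr had no count. Of 10 atypical dual-specificity phosphatases, which lack the docking domain of the typical ones, 7 were detected, led by Dusp11 at 74.9 ± 3.89 TPM, Dusp12 at 42.5 ± 0.38 TPM, Dusp22 at 15 ± 1.79 TPM and Dusp28 at 12.3 ± 0.762 TPM. Dusp3 and Dusp18 stayed below 1 TPM and Dusp26 had no count. Dusp5 and Dusp2 thus lay above each of the 10 atypical genes in every library.

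Upstream of the kinases, 8 of 9 Ras activation genes and 8 of 8 Ras and RasGAP genes were detected. Lat, the adaptor of the T cell receptor, lay at 424 ± 19.2 TPM, Grb2 at 115 ± 2.55 TPM, Rasgrp1, the Ras exchange factor of T cells, at 84.6 ± 5.13 TPM and Shc1 at 40.7 ± 2.97 TPM, while Rasgrp3 stayed below 1 TPM. The Ras genes Nras and Hras lay at 70.6 ± 2.56 TPM and 51.5 ± 1.54 TPM. Rasal3, a RasGAP of haematopoietic cells, lay at 214 ± 15 TPM, near Spry1.

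All 12 genes listed as ERK-responsive were detected, with a median of 26.7 TPM over the list. Myc lay at 939.7 ± 51.1 TPM, the immediate early gene Ier2 at 369 ± 9.96 TPM, Egr3 at 85.3 ± 7 TPM and Egr2 at 38.8 ± 1.89 TPM. Egr1 and Fos, both named after their values were seen, lay at 30.04 ± 1.52 TPM and 7.38 ± 0.659 TPM. Dusp5, Dusp2 and Spry1 stood above both of these classical immediate early genes in TPM. Myc, in contrast, lay above Dusp5, Dusp2 and Spry1, and Ier2 lay above Spry1 but below Dusp5 and Dusp2. All 7 genes of the list on turnover of Sprouty, of ERK regulators and of unstable mRNA were detected, led by Zfp36l1, which destabilises AU-rich mRNA, at 275 ± 27.3 TPM and by the ubiquitin ligase gene Cblb at 141 ± 12.9 TPM. Cnot1, the scaffold of the deadenylase complex, lay at 94.4 ± 7.89 TPM and Tesk1, a kinase that binds Sprouty, at 71.5 ± 4.05 TPM. No gene of any of these lists passed the spread test, with a lowest edgeR adjusted p of 0.845.

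The 250 bases before the start were above the median GC content of all promoters in each of the 9 members found in the RefSeq promoter table (GRCm38.p6). Starts here are those of RefSeq: for Dusp5 and Dusp1 they lie downstream of the deposited gene starts given above, by less than the length of the window, and for Dusp10 far inside the deposited gene, so its window is that of an internal start. GC content lay between 56.4% for Dusp6 and 77.2% for Dusp7, beside a median of 52.4% and an upper quartile of 61.2% over all 32851 promoter windows. Dusp6 and Dusp10 (59.6%) lay below that quartile and the other 7 above it. The number of CG dinucleotides lay between 16 and 34, beside a median of 6 and an upper quartile of 16. Exact matches, on both strands, were sought to the cyclic AMP response element TGACGTCA, the AP-1 site TGANTCA, the ETS site CCGGAAGT, the E-box CACGTG and the TATA box TATAAA. Dusp1 held the first (in 1.55% of all windows) and an E-box, Dusp2 held an E-box (in 6.02% of all windows), and AP-1, ETS and TATA letters were found in none of the 9 (in 6.75%, 2.88% and 12.4% of all windows).

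The most abundant member, Dusp5, held a pair of directly adjacent CArG boxes, the binding sequence of serum response factor, which were looked for only after the sequence had been read. A CArG box was present in 1.47% of all windows and in no other member of the 9. The stretches with matches are shown for the 2 most abundant members and for Dusp1, with the matched letters in capitals, 5′ to 3′ on the gene's strand. That of Dusp5 is chr19:53529048-53529097 (plus strand, 97 to 48 bases before the RefSeq start), that of Dusp2 chr2:127336035-127336070 (plus strand, 124 to 89 bases before it) and that of Dusp1 chr17:26508578-26508630 (minus strand, 158 to 106 bases before it). All 3 stretches also lie before the deposited gene starts.
Dusp5: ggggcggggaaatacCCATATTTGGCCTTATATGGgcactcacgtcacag
Dusp2: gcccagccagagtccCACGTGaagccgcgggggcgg
Dusp1: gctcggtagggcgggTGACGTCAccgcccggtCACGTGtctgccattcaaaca
These are matches of letters only, and binding was not measured.

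The AU-rich pentamer ATTTA, a feature of unstable mRNA, was counted in the longest annotated 3′ untranslated region of each gene. It was present in 9 of 10 members, Dusp7 being the exception, beside 66.2% of 20674 genes. Its density was highest in Dusp2, at 6.88 per kb (4 in 581 bases), and Dusp1, at 5.8 per kb (4 in 690 bases), at percentiles 96.6 and 94.9 of all genes, while Dusp5 and Dusp6 had 1 each. The longer form TATTTAT was present in 4 of 10 members (Dusp1, Dusp2, Spry1 and Spry2), beside 28% of all genes. The genes with the densest pentamers thus lay at 468 TPM (Dusp2) and 22 TPM (Dusp1).

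Facts of the libraries were as follows. The tables held 46192242 to 63313389 counted read pairs per library, and all 6 library pairs differed by more than counting noise (chi-square per degree of freedom from 8.63 to 21.8), so none was a copy of another. All 7 T cell markers examined were detected, with a summed level of 4816 to 4941 TPM, among them Cd4. None of the 5 B cell markers (summed level 2.45 to 9.36 TPM), 6 myeloid, 4 NK cell, 4 erythroid or 4 stromal and endothelial markers reached 1 TPM in every library, and the summed level of each of the last 4 lists was at most 1.66 TPM. S100a8, S100a9, Hbb-bs and Hba-a1 had no count. Of the CD8 markers Cd8b1 was detected and Cd8a was not, with a summed level of 54.2 to 62.2 TPM.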

How the data were processed

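For each of the 4 T cell libraries, the authors deposited a table of genes with raw counts (read pairs, not normalized) and exonic length. Per the file headers, featureCounts 1.4.6-p4 summed exons by gene over GENCODE M13 from STAR alignments (version not given in the sources used here), required both mates and used strand setting 2. Per the labels, alignment was to mm10. The recorded command names no setting for reads that map to several places or genes. Total RNA-seq is the labels' assay name, whereas the linked library protocol is named for polyA+ RNA, and which applies was not settled.

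Symbols came from GENCODE M21 (50376 of 50600 identifiers matched). TPM was computed from counts and deposited exonic length. The spread test used edgeR 4.0.16 under R 4.3.3, with filterByExpr, TMM and a robust quasi-likelihood fit of an intercept. It compared residual quasi-dispersion on 3 degrees of freedom with the trended prior on 13.9 (F distribution, upper tail), with Benjamini-Hochberg adjustment over 12285 genes and a threshold of 0.05. The log2 CPM values used a prior count of 2. Pairs of members were compared by exact sign-flip permutation on log2(TPM + 1). The spread test was also run on simulated counts. Their spread was drawn from the trend and prior fitted to these data, so that run cannot show whether the test suits them. DESeq2 1.42.0, Python 3.11.15, scipy 1.17.1 and Biopython 1.88 were also used. Coding sequences were aligned globally.

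The members and gene lists were chosen with earlier results of these data known. Named genes were the 10 members, the remaining typical MAP kinase phosphatase and Sprouty genes, and of each other list the 4 highest genes by mean TPM, genes past the spread threshold and genes below 1 TPM in every library, apart from a few genes that are not reported here; Mapk11, Egr1 and Fos were named after their values were seen. A planned comparison of protein sequences was not made; coding sequences, shared runs of 50 bases and AU-rich pentamers were examined instead, a choice made after the files had been seen, as was the search for CArG boxes. Alternatives covered scaling, count filters, TPM floors, gene lengths, pseudocounts, promoter windows and each replicate left out.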

Additional observations from a re-analysis of the deposited data

Results flagged for a closer look

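In a group of 4 libraries, a library was looked at again where its gap to the nearest other took more of the whole range than Dixon's 95% critical value allows. Of 57 quantities examined 4 did so; chance alone marks about 1 in 20 such groups. Among the members it was Dusp1, where replicate 3 lay at 18.1 TPM against 23 to 23.7 TPM in the others, a gap of 0.879 of the range; the spread test of edgeR did not call it (adjusted p = 0.972). Nras lay at 74.4 TPM in replicate 4 against 69 to 69.7 TPM (gap 0.871), and Egr2 at 36 TPM in replicate 2 against 39.7 to 40 TPM (gap 0.923). Mapk13 had 4 read pairs in replicate 1, or 0.164 TPM, and none in the other libraries, so its gap of 1 is that of a gene at the limit of detection.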

How the results depend on the processing

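The count of members past the spread threshold was 0 under all 10 alternatives run, with a lowest edgeR adjusted p between 0.907 and 0.993 over the 9 that give one. The count over all genes, 28, became 142 with no count filter, 15 without the robust prior and 68 as DESeq2 dispersion outliers, and ran from 14 (without replicate 3) to 27 with 1 replicate left out. Detected members were 9, and 10 at a floor of 0.5 TPM, where Spry2 was added. Detected Sprouty genes became 3 at a floor of 0.5 TPM and 2 with TPM over protein-coding genes. Pairs of members with 1 direction in every library numbered 44, and 45 without replicate 3. Without length division the class shares became 82.6%, 13.2% and 4.25%. With 300 bases taken off each length, genes no longer than that were given a length of 1 base, which raises their TPM at the cost of all others, and the mean TPM of all 10 members fell (Dusp5 to 229.5 TPM) while their order and the class shares stayed within their spread. With TPM over protein-coding genes the level of 2 members moved by more than their SD, and with a replicate left out that of none did. Promoter matches were unchanged over the whole window of 300 bases. Depth limits Spry2, Dusp8 and Dusp9, which rest on 7 to 69 read pairs in a library. No paired comparison of groups was possible because there is 1 group and so no pair of groups that share replicate numbers. Only the pairs of members were compared within libraries.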
